A study of Homo sapiens with 8 samples.

Results

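The genes described here are FOS, FOSL2, JUN, JUNB, JUND, EGR1, IER2, KLF6, KLF10 and MYC, 10 of the 36474 genes in the count table. They were chosen by name as transcription factors (or, for IER2, a transcriptional regulator) of the immediate early class together with MYC. The rule uses no measured value, but the genes were chosen with earlier results of these data known. All 10 passed the filter on low counts that left 21071 genes for testing. RNA sequencing was done on LNCaP, an established human line from a prostate carcinoma metastasis, and every library came from cells starved for 6 to 12 h in medium without serum or calcium. The cells then received recombinant human asporin (ASPN, a small leucine-rich protein that fibroblasts secrete into the matrix) at 100 ng/mL. RNA was taken at 0 h (n = 2), 12 h (n = 3) and 24 h (n = 3), after the authors had left out 1 time-0 replicate for quality. Libraries of cells kept 12 or 24 h without ASPN were not analysed here. The effect of ASPN and that of longer starvation therefore cannot be told apart in any comparison. The libraries are labelled biological replicates of 1 line plated in triplicate wells, so p-values measure the spread between these libraries only.

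Immediate early genes are those that a growth factor, serum or stress induces within minutes without new protein synthesis. ERK signaling below receptors such as HER2 and HER3 acts on them through serum response factor and its ETS partners, and many of their transcripts are degraded quickly, so that a pulse of FOS or EGR1 mRNA is over long before the first time point sampled after 0 h. FOS and JUN family proteins pair to form the AP-1 factor, EGR1 and the KLF proteins bind GC-rich DNA through zinc fingers, and MYC pairs with MAX to drive genes of growth and ribosome synthesis. The comparisons ask how these transcripts stood at 12 and 24 h, not what happened in the first hour.

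The libraries held 73406825 to 96962135 counts, and the 10 genes together took 0.0804% to 0.0846% of them. Levels are given in CPM, which are counts divided by the TMM-scaled library size, and 3 counts in a library, the limit that a count of 0 allows, correspond to 0.0309 to 0.0409 CPM. Such limits cover counting error only. LNCaP identity was checked with 10 luminal prostate markers including KLK3, KLK2 and KRT8. All 10 were detected, with a summed level of 5740 to 5750 CPM at 0 h, 6120 to 6190 CPM at 12 h and 6290 to 6460 CPM at 24 h. Fibroblast markers summed to 20.4 to 23.2 CPM, endothelial markers to 11.3 to 17.5 CPM and immune markers to 0.0259 to 0.248 CPM. Most of the fibroblast sum was COL1A1, with group means of 19.1 to 20.3 CPM. Most of the endothelial sum was VWF, with group means of 12.3 to 16 CPM. DCN, PDGFRA, PECAM1 and CDH5 had at most 5 counts in a library. Of the 10 luminal markers, 6 were higher and 1 lower (STEAP2) at 12 h at an adjusted p of 0.05 by edgeR. At 24 h, 8 were higher and 1 lower (KRT18). Their part in the changes below was not tested. In such bulk RNA, fewer cells of a type and less RNA per cell cannot be told apart.

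MYC was the only gene of the 10 to pass the test as higher than at 0 h, and it did so at both 12 h and 24 h. KLF6 and JUND were lower at both times. JUN and FOSL2 were lower at 12 h. At 12 h, 1 of the 10 genes was higher and 4 were lower at an adjusted p of 0.05 (edgeR quasi-likelihood test, adjusted over all tested genes), where 4.85% of all tested genes were higher and 6.75% lower. At 24 h, 1 was higher and 2 were lower, against 7.82% and 8.49% of all tested genes. Between 24 h and 12 h, 1 was higher, against 1.12% of all genes, and 0 were lower, against 1.61%. By an unadjusted p under 0.05 and by DESeq2, 0 were lower as well.

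None of the 10 genes changed by as much as 1.5-fold in any comparison. The call rule of at least 1.5-fold with an adjusted p of at most 0.05 took 0 of 10 at 12 h, where 1.05% of all tested genes passed, 0 of 10 at 24 h, where 2.45% passed, and 0 of 10 between 24 h and 12 h, where 0.18% passed. DESeq2 called 0 of them too, and the counts at an unadjusted p under 0.05 were 5, 3 and 2 genes. Libraries of the compared groups did not overlap for 5 of the 10 genes at 12 h, against 36.9% of all genes, for 4 at 24 h, against 43.2%, and for 2 between 24 h and 12 h, against 19.6%. The median log2 fold change of the 10 genes was -0.09 at 12 h, -0.02 at 24 h and 0.04 between 24 h and 12 h, beside medians of all tested genes between -0.00307 and 0.00345. Both comparisons with time 0 use the same pair of 0 h libraries. Without 0 h replicate 1, 0 of the 10 genes passed at 12 h. The log2 fold changes were then 0.17 for MYC (adjusted p 0.0663 by edgeR), -0.21 for JUN (0.0915), -0.34 for KLF6 (0.0966), -0.17 for JUND (0.119) and -0.13 for FOSL2 (0.44). That fit has 1 library at 0 h, which is assumed to vary like those of the other groups.

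**Figure D1:**
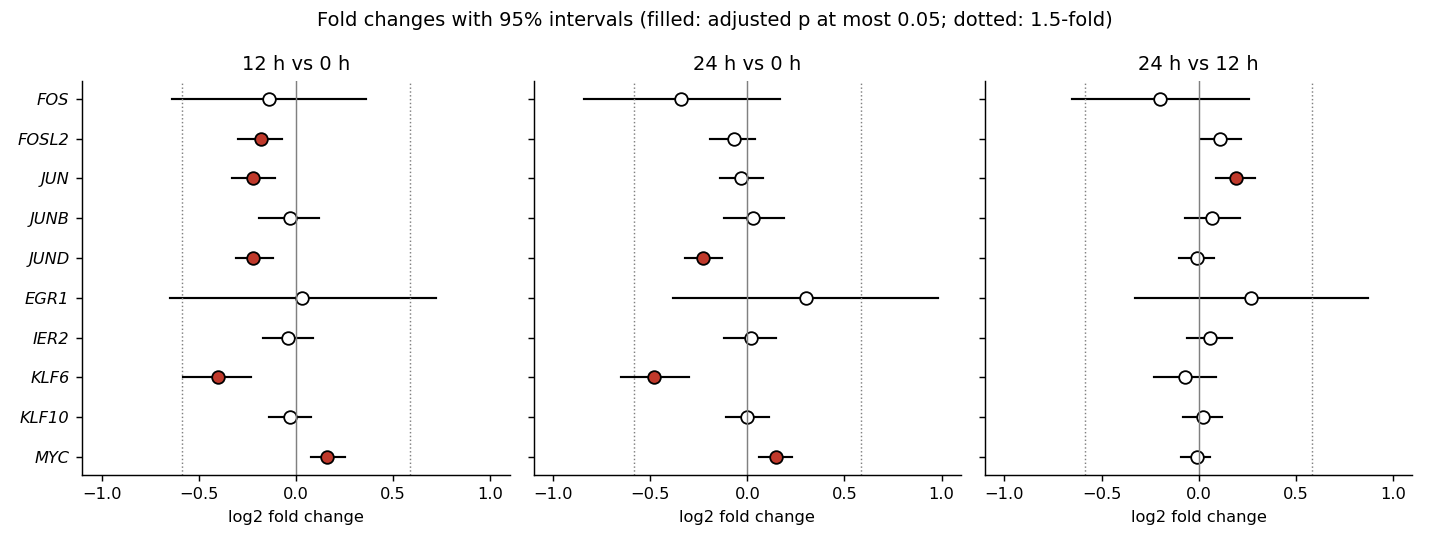
Log2 fold changes (x axes) of the 10 genes (rows) in the 3 comparisons, with 95% confidence intervals from the edgeR fit; filled points passed an adjusted p of 0.05 and dotted lines mark 1.5-fold. No point lies beyond the dotted lines, and the intervals of FOS and EGR1 are the widest of the 10.

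Levels between genes were compared per kilobase (kb) of exon, since a longer transcript gives more reads. The length was that of all annotated exon bases of a gene, not of the transcript in use. It was 6109 bases for MYC, whose longest annotated transcript has 3721, and 1929 bases for JUND. Before this division MYC stood above JUND, at means of 348 and 245 CPM, so their order depends on the lengths used. JUND, the most steadily expressed of the JUN family in most cells, was the most abundant of the 10 at a mean of 127 CPM per kb over the 8 libraries, above 98.9% of the 21034 tested genes with a known exon length. MYC followed at 56.9 CPM per kb, above 97% of these genes. JUN stood at 26.9, KLF10 at 12.8, IER2 at 8.78 and JUNB at 8.28 CPM per kb. FOSL2 lay at 5.19 and KLF6 at 1.76 CPM per kb. FOS and EGR1, the usual markers of a recent stimulus, were the lowest at 0.364 and 0.216 CPM per kb, above 30.3% and 23.5% of the tested genes. The ranges of neighbouring genes in this order overlapped for 2 pairs, IER2 with JUNB and FOS with EGR1. Within each of the 8 libraries, IER2 exceeded JUNB and FOS exceeded EGR1. Of the exon bases of IER2 and JUNB, 52.2% and 14.2% overlap genes on the other strand, so their order may depend on how reads there were counted.

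**Figure D2:**
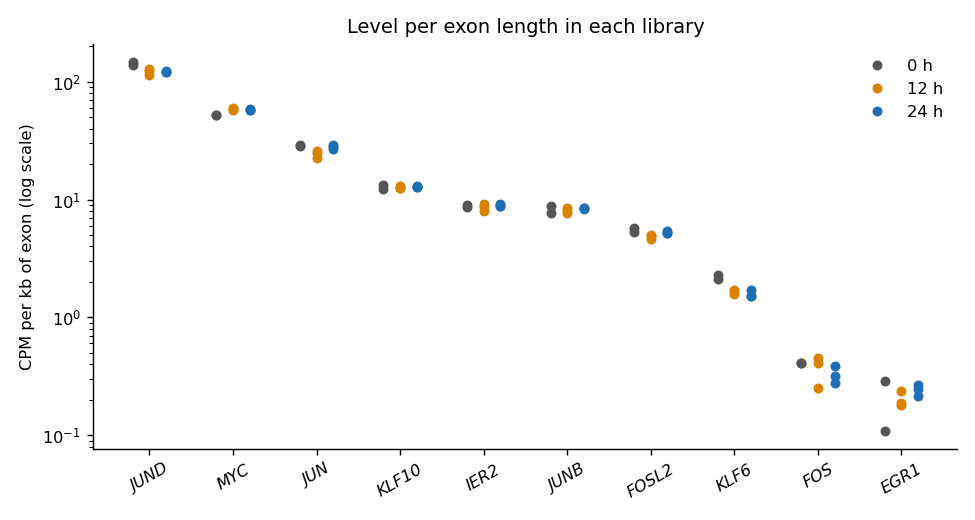
CPM per kb of exon (y axis, log scale) of the 10 genes in order of their mean, each point a library, coloured by time with ASPN. The order runs from JUND at 114 to 146 CPM per kb to EGR1 at 0.109 to 0.289, and time moves no gene, apart from the close pairs IER2 with JUNB and FOS with EGR1, into the range of its neighbour.

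FOS (ENSG00000170345.10, GRCh38 chromosome 14, 75278826 to 75282230) encodes the founding FOS protein, which reaches DNA only as a partner of a JUN protein. It was counted 116 and 94 times in the 0 h libraries, 101, 72 and 126 times at 12 h, and 92, 85 and 90 times at 24 h. These counts correspond to 1.32 and 1.29 CPM at 0 h, 1.31, 0.808 and 1.44 CPM at 12 h, and 1.01, 0.879 and 1.23 CPM at 24 h. The 12 h libraries held both the lowest and the highest value, while all 24 h libraries lay below both 0 h libraries. The fold change was 0.908 at 12 h (95% interval 0.64 to 1.29, adjusted p 0.802 by edgeR) and 0.792 at 24 h (0.557 to 1.13, adjusted p 0.425). Both intervals lie below a 1.5-fold rise, and both include a 1.5-fold decrease.

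FOSL2 (ENSG00000075426.12, chromosome 2, 28392448 to 28417317), a FOS relative whose transcript persists longer after a stimulus, was by far the main FOS family transcript. It stood at 41.2 and 38.1 CPM at 0 h, 35.9, 33.4 and 35.4 CPM at 12 h, and 37.3, 37.2 and 38.6 CPM at 24 h. All 12 h libraries lay below those of both other time points, and the 24 h libraries overlapped those at 0 h. The log2 fold change was -0.18 at 12 h (SE 0.058, adjusted p 0.0334 by edgeR) and -0.07 at 24 h (SE 0.058, adjusted p 0.462), and between 24 h and 12 h it was 0.11 (SE 0.052, adjusted p 0.333). The 12 h call was lost in 8 of 14 alternatives, including upper-quartile scaling (adjusted p 0.0502) and the fit to the compared time points alone (0.0878), with log2 fold changes between -0.23 and -0.13 throughout.

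JUN (ENSG00000177606.8, chromosome 1, 58776845 to 58784048), the AP-1 subunit whose gene is itself an AP-1 target, was the only gene of the 10 whose level differed between 12 h and 24 h by this test. It stood at 105 and 103 CPM at 0 h, 90.8, 81.9 and 94.1 CPM at 12 h, and 98.2, 106 and 100 CPM at 24 h. The 12 h libraries were the 3 lowest, and the 24 h libraries overlapped those at 0 h. JUN fell at 12 h (log2 fold change -0.22, SE 0.053, adjusted p 0.00451 by edgeR), did not pass at 24 h (-0.03, SE 0.053, adjusted p 0.777, 95% interval -0.14 to 0.08), and rose from 12 h to 24 h (0.19, SE 0.048, adjusted p 0.0198). This last call was lost without 12 h replicate 2 (adjusted p 0.113), 24 h replicate 2 (0.239) or 24 h replicate 3 (0.0816), while the log2 fold change stayed between 0.14 and 0.23 over 15 alternatives.

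JUND (ENSG00000130522.6, chromosome 19, 18279694 to 18281622), which is present in resting cells and often opposes JUN in growth control, was lower at both later times. It stood at 283 and 266 CPM at 0 h, 249, 219 and 240 CPM at 12 h, and 233, 233 and 238 CPM at 24 h. Every later library lay below both 0 h libraries, and the 24 h libraries sat within the 12 h range. The log2 fold change was -0.22 at 12 h (SE 0.048, adjusted p 0.00259 by edgeR) and -0.23 at 24 h (SE 0.048, adjusted p 0.000944), while 24 h against 12 h gave -0.01 (95% interval -0.10 to 0.08, adjusted p 0.958). The 24 h change passed in all 14 alternatives, with adjusted p up to 0.0449 without 0 h replicate 1.

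JUNB (ENSG00000171223.6, chromosome 19, 12791486 to 12793315), a JUN relative that can restrain JUN, gave no change past the test. It ran from 14.1 to 16.2 CPM at 0 h, 14.1 to 15.4 CPM at 12 h and 15.3 to 15.7 CPM at 24 h. The 0 h pair spanned the values of all later libraries. The 95% interval of the log2 fold change was -0.19 to 0.12 at 12 h and -0.12 to 0.19 at 24 h. Of its exon bases, 14.2% overlap HOOK2 on the other strand, which had 76706 counts in all libraries together. The counting was not stated to use strand.

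Summed per kb, the JUN family (JUN, JUNB and JUND) stood at 144 to 183 CPM per kb and the FOS family (FOS, FOSB, FOSL1 and FOSL2) at 5.29 to 6.65, so that the JUN family sum was 25.3 to 28 times the FOS family sum in each library. The mean ratio was 27.8 at 0 h, 27.1 at 12 h and 26.4 at 24 h (two-sided exact permutation p 0.2 for 12 h and for 24 h against 0 h, the smallest possible, and 0.3 for 24 h against 12 h). FOSL2 made up 83.8% to 89.1% of the FOS family sum. JUND made up 80% and 78.7% of the JUN family sum at 0 h, 79.8%, 78.8% and 78.3% at 12 h, and 77.2%, 76.3% and 77.3% at 24 h. The share of JUND was lowest in the 24 h libraries, without overlap with 12 h or 0 h. The mean difference between 24 h and 12 h was -2.03 percentage points (two-sided exact permutation p 0.1, the smallest that 3 against 3 libraries allow, adjusted p 0.3 over 6 tests, 3 for this share and 3 for the ratio), so neither this nor the 24 h difference from 0 h of -2.42 points (exact p 0.2, the smallest possible) could reach 0.05.

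EGR1 (ENSG00000120738.8, chromosome 5, 138465479 to 138469303), a zinc finger factor and one of the fastest ERK-responsive genes, was the least abundant of the 10. Its counts were 30 and 66 at 0 h, 57, 51 and 51 at 12 h, and 70, 81 and 49 at 24 h. In CPM these are 0.341 and 0.908 at 0 h, 0.739, 0.572 and 0.584 at 12 h, and 0.769, 0.838 and 0.667 at 24 h. The 0 h pair held both the lowest and the highest of the 8 values, so every later library fell between them. The fold change was 1.02 at 12 h (95% interval 0.636 to 1.65, adjusted p 0.97 by edgeR) and 1.23 at 24 h (0.771 to 1.98, adjusted p 0.625), intervals that hold changes of 1.5-fold. Its direction followed the 0 h library used, with log2 fold changes at 24 h of -0.26 without 0 h replicate 1 and 1.16 without the other 0 h library, neither past the test.

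IER2 (ENSG00000160888.7, chromosome 19, 13150411 to 13154911), a nuclear protein of the immediate early class, stood at 26.6 and 27.8 CPM at 0 h, 24.4, 26.8 and 28.1 CPM at 12 h, and 27.2, 28.3 and 27.1 CPM at 24 h. The 3 groups overlapped. The 95% interval of the log2 fold change was -0.17 to 0.09 at 12 h (adjusted p 0.788 by edgeR) and -0.12 to 0.15 at 24 h (adjusted p 0.909). Of its exon bases, 52.2% overlap long noncoding RNAs annotated on the other strand, and reads of these could be counted with it.

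KLF6 (ENSG00000067082.15, chromosome 10, 3775996 to 3785281), a Kruppel-like zinc finger factor studied as a growth suppressor in prostate cancer, showed the largest change of the 10. It stood at 14 and 12.9 CPM at 0 h, 9.62, 10.6 and 10.3 CPM at 12 h, and 9.34, 9.3 and 10.5 CPM at 24 h. All 6 later libraries lay below both 0 h libraries, and the 12 h and 24 h libraries overlapped. KLF6 fell by 24.4% at 12 h (log2 fold change -0.40, SE 0.086, adjusted p 0.00167 by edgeR) and by 28.1% at 24 h (-0.48, SE 0.086, adjusted p 0.000133). The 95% interval of the 24 h fold change, 0.636 to 0.812, includes values past a 1.5-fold decrease. At 24 h the fall passed in all 14 alternatives, with log2 fold changes of -0.53 to -0.42.

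**Figure D3:**
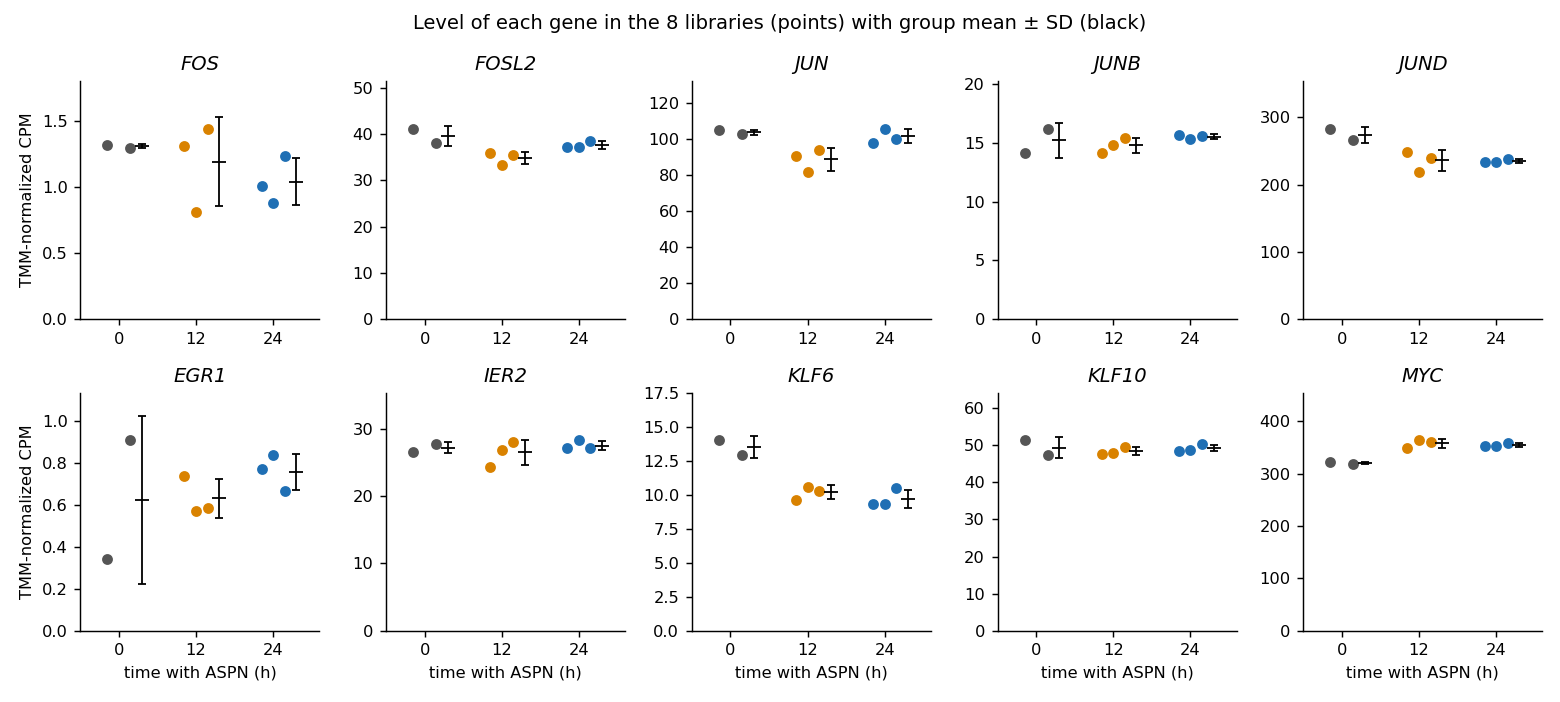
TMM-normalized CPM (y axes, each from 0) of the 10 genes against time with ASPN (x axes, h); each coloured point is a library and black marks give the group mean ± SD. The 12 h and 24 h points of KLF6 and JUND lie below both 0 h points, those of MYC lie above both, and the 0 h points of EGR1, at 0.341 and 0.908 CPM, enclose all the others.

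Promoter sequence is shown for JUN, JUND and KLF6, which fell together at 12 h, and for EGR1, whose promoter is a textbook case of a serum-responsive one. The sequences are from RefSeq (GRCh38.p14), read 5′ to 3′ on the strand of the gene, and end at the base before the annotated gene. Search results are given for 7 of the 10 genes. The 250 bases before the RefSeq start were searched on both strands. The motifs were TGANTCA (the AP-1 element), and TGACGTCA and TGACATCA (the CRE and its variant at the JUN promoter, bound by ATF and AP-1 factors). The others were the CArG box (bound by serum response factor), GCGNGGGCG (bound by EGR1), CACGTG (the E-box that MYC and MAX bind), CCAAT and TATAAA. Capitals mark the matches, with CCAAT read on either strand. The sequences are chr1:58784049-58784297 (minus strand, with TGACATCA and CCAAT) for JUN and chr19:18281623-18281872 (minus strand, with TGACGTCA and CCAAT) for JUND. They are chr10:3785282-3785459 (minus strand, with TGACATCA, CACGTG and CCAAT) for KLF6 and chr5:138465229-138465478 (plus strand, with CArG boxes and GCGNGGGCG) for EGR1.
JUN: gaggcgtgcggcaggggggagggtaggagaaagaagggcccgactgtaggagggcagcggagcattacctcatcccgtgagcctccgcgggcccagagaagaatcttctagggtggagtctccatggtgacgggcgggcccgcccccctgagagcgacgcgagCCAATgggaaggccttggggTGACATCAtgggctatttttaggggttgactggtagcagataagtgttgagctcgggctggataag
JUND: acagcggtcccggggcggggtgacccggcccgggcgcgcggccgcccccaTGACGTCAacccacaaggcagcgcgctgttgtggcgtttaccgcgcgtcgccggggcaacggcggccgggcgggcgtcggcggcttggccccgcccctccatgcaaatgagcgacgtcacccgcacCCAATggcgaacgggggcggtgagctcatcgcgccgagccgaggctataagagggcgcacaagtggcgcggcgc
KLF6: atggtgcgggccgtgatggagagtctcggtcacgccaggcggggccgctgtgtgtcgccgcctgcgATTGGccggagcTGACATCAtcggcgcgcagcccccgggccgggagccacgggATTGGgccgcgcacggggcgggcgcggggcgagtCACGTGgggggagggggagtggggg
EGR1: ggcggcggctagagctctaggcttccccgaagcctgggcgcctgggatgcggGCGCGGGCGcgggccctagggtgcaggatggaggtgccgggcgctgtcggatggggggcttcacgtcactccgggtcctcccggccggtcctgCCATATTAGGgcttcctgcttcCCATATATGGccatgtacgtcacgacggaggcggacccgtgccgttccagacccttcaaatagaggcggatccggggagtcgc

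JUN and KLF6 both held TGACATCA, 67 and 172 bases before the RefSeq start, and JUND held TGACGTCA 200 bases before it. TGACATCA was present in 2.37% and TGACGTCA in 1.65% of 35116 RefSeq promoter windows of this length, while CCAAT, which these 3 and JUNB held, was present in 32%. EGR1 held 2 CArG boxes, which begin 105 and 83 bases before the start, where 1.16% of all windows held any. JUNB and FOS held TATAAA, and none of the 8 motifs was found in the window of IER2. No sequence and no search result are given for FOSL2, which was also lower at 12 h, or for MYC and KLF10. TGANTCA was present in 6.57%, GCGNGGGCG in 8.41%, CACGTG in 6.34% and TATAAA in 10.7% of all windows. KLF6 also held GCGNGGGCG in the searched window, past the end of the sequence printed. A match describes the letters only, and binding was not measured. JUN, JUND and KLF6 were shown because they were lower at 12 h in these data, and a link of the motifs to this was not tested.

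The spread between libraries of one time point was low for MYC and KLF10, near the median of all genes for most of the others and wide for FOS and EGR1. It was taken as the SD of log2 CPM within groups, pooled over the 3 time points, and compared with 13457 well-counted genes, whose normalized counts averaged 100 or more. These genes were not matched for count, and counting error is smaller at higher counts. MYC averaged 29400 counts a library, FOS 97 and EGR1 56.9, so part of their difference in spread goes with their counts. MYC had an SD of 0.0224, below that of all but 1.67% of the well-counted genes. KLF10 followed at 0.0449 (percentile 17.4) and FOSL2 at 0.053 (percentile 26.2). JUND, IER2, JUNB, JUN and KLF6 ran from 0.0668 to 0.0851, on either side of the median over all those genes of 0.0749. FOS at 0.315 and EGR1 at 0.458 were far wider and fell below the minimum count for the comparison.

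**Figure D4:**
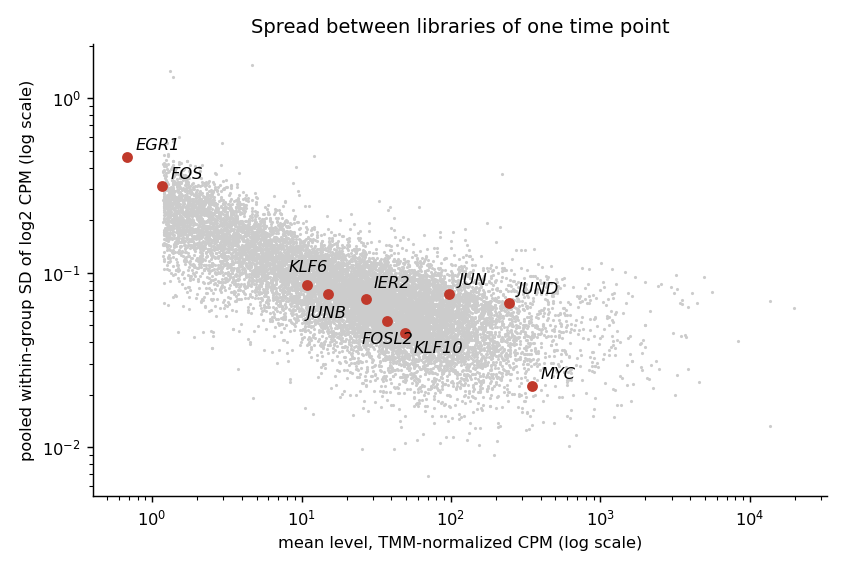
Pooled within-group SD of log2 CPM (y axis, log scale) against mean CPM (x axis, log scale); grey points are the 13457 well-counted genes and red points the 10 genes. MYC lies at the low edge of the cloud at an SD of 0.0224, and EGR1 and FOS stand at the upper left.

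KLF10 (ENSG00000155090.15, GRCh38 chromosome 8, 102648784 to 102655725), an early response gene of TGF-beta signaling, gave no change past the test. It stood at 51.3 and 47.3 CPM at 0 h, 47.7, 48 and 49.5 CPM at 12 h, and 48.5, 48.8 and 50.2 CPM at 24 h. The 0 h pair enclosed all later values. The 95% interval of the log2 fold change was -0.14 to 0.08 at 12 h and -0.11 to 0.11 at 24 h, within which a change of 1.5-fold does not lie.

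MYC (ENSG00000136997.21, chromosome 8, 127735434 to 127742951) was the only gene of the 10 to pass the test as higher at both later times. It stood at 322 and 319 CPM at 0 h, 349, 364 and 361 CPM at 12 h, and 353, 354 and 359 CPM at 24 h. All 6 later libraries lay above both 0 h libraries, and the 12 h and 24 h libraries overlapped. MYC rose by 11.8% at 12 h (log2 fold change 0.16, SE 0.042, adjusted p 0.00933 by edgeR) and stood 10.9% above 0 h at 24 h (0.15, SE 0.042, adjusted p 0.0118). The interval of the fold change at 24 h was 1.04 to 1.18. The 12 h call was lost in the fit to the compared time points alone (adjusted p 0.0516) and without 0 h replicate 1 (0.0663), and the 24 h call without 0 h replicate 1 (0.064) or 24 h replicate 3 (0.0608), with nearly the same fold change each time. Of its exon bases, 3.18% overlap CASC11 on the other strand, which had 522 counts in all libraries together.

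For FOS, EGR1 and MYC, the genes with the most similar course over the 8 libraries were sought among well-counted genes by the root mean square difference of log2 CPM after centring each gene. Those nearest to MYC were MAML3 (0.0196), EEF2K (0.0218) and RANBP1 (0.0226), differences much smaller than the SD of MYC over the 8 libraries, 0.0743. Those nearest to FOS were TLCD3B (0.108), TSPEAR (0.111) and AMPD3 (0.123), beside an SD of FOS of 0.301. Those nearest to EGR1 were NHLRC4 (0.208), TBXAS1 (0.226) and TIGD3 (0.24), beside an SD of 0.426. These values describe likeness in 8 libraries that share their time points and are no test.

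Among other AP-1 and bZIP partners of FOS and JUN, 13 of 14 listed genes were tested. At 12 h, 3 were lower (ATF2, ATF3 and MAFG) and 0 higher, where 6.75% of all tested genes were lower and 4.85% higher. At 24 h, 4 were lower (these and JDP2) and 1 higher, where the shares of all tested genes were 8.49% and 7.82%. The same shares stand behind the counts of the lists that follow. DESeq2 also found 0 higher at 12 h, and 1 was higher at an unadjusted p under 0.05 in edgeR. Beyond the 3 genes with the smallest p in each list, list genes such as JDP2 were named after their values had been seen.

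ATF3, a stress-induced factor that pairs with JUN proteins, fell the most of these, from 115 ± 12.4 CPM (SD, n = 2) at 0 h to 80.9 ± 4.77 (n = 3) at 12 h and 67.9 ± 3.26 (n = 3) at 24 h. The log2 fold change at 24 h was -0.76 (SE 0.058, adjusted p 6.21e-11 by edgeR), past the 1.5-fold rule. MAFG, a small MAF partner, had a log2 fold change of -0.37 (adjusted p 4.92e-06 by edgeR) and ATF2, a target of JUN N-terminal kinases, of -0.33 (adjusted p 5.37e-05) at 24 h. FOSB, counted at most 207 times in a library, had a log2 fold change of -0.49 at 12 h (adjusted p 0.118) and -0.44 at 24 h (adjusted p 0.142), neither past the test. From 12 h to 24 h, ATF3 fell further (-0.25, adjusted p 0.00556) and MAF rose (0.36, adjusted p 0.0442).

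Of 25 other immediate early genes listed, EGR2, EGR4, IER3 and CCN2 were not tested. Of the 21 tested, 4 were lower at 12 h (ZFP36L1, BTG1, BTG2 and KLF4) and 0 higher, with 0 by DESeq2 and 1 at an unadjusted p under 0.05. At 24 h, 3 were lower (BTG1, BTG2 and KLF4) and 2 higher (MCL1 and RHOB). BTG2, an antiproliferative early gene, went from 84.4 ± 0.675 CPM (SD, n = 2) to 68.3 ± 0.764 and 66.9 ± 2.22 CPM (n = 3 each), a log2 fold change at 24 h of -0.33 (adjusted p 4.96e-06 by edgeR). Its relative BTG1 had -0.32 (adjusted p 7.74e-06 by edgeR). RHOB, a short-lived small GTPase, stood at 107 CPM at both 0 h and 12 h and at 127 ± 1.69 CPM (n = 3) at 24 h, and rose from 12 h to 24 h (log2 fold change 0.24, adjusted p 0.000638 by edgeR). MCL1 rose over the same interval (0.17, adjusted p 0.00899). The median log2 fold change of the list was -0.04 at 12 h and 0.02 at 24 h.

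Of 16 regulators of immediate early genes tested, 1 was lower and 0 higher at 12 h (0 higher by DESeq2, 1 at an unadjusted p under 0.05), and 2 were lower and 1 higher at 24 h. RPS6KA3, a kinase downstream of ERK, was lower at 24 h (log2 fold change -0.30, adjusted p 2.65e-05 by edgeR). MAPK8, the kinase JNK1 that phosphorylates JUN, was lower at 12 h (-0.18, adjusted p 0.0242), a call lost in 4 of 14 alternatives, and NAB1, a repressor of EGR1, was higher at 24 h than at 12 h (0.31, adjusted p 0.0317), a call lost in 5 of 15. SRF itself had log2 fold changes of -0.02 at 12 h (95% interval -0.12 to 0.09) and -0.07 at 24 h (-0.18 to 0.03).

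Of 14 other KLF and SP factors tested, 2 were lower at 12 h (SP1 and SP4) and 2 at 24 h (SP1 and KLF15), and KLF8 was higher at 24 h. SP1, the widely expressed GC-box factor, went from 113 ± 0.699 CPM (SD, n = 2) to 99.5 ± 5.63 and 91.3 ± 1.27 CPM (n = 3 each), with a log2 fold change at 24 h of -0.31 (adjusted p 1.75e-05 by edgeR). KLF15 had -0.35 at 24 h (adjusted p 0.00493) and SP4 had -0.26 at 12 h (adjusted p 0.0133), and these calls were lost in 2 and 3 of 14 alternatives.

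Around MYC, 16 of 17 listed partners and antagonists were tested. MAX, the obligate partner, had log2 fold changes of -0.07 at 12 h (95% interval -0.18 to 0.04) and -0.01 at 24 h (-0.12 to 0.09). At 12 h 2 of the list were higher (MLXIP and MXD3), and at 24 h 2 were higher (MLXIP and ZBTB17) and 2 lower (MYCBP2 and FBXW7). MLXIP, a glucose-sensing member of the extended MYC network, rose at 12 h (0.34, adjusted p 2.15e-05 by edgeR). ZBTB17, the MIZ1 factor through which MYC represses genes, was higher at 24 h (0.33, adjusted p 0.00313), a call lost without 0 h replicate 1 (adjusted p 0.112). MYCBP2, a ubiquitin ligase first found as a MYC-binding protein, fell from 12 h to 24 h (-0.27, adjusted p 0.0012).

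Among genes that MYC is known to induce, 31 of 32 were tested. At 12 h 5 were higher and 3 lower, against 4.85% and 6.75% of all tested genes. At 24 h 7 were higher and 4 lower, against 7.82% and 8.49%, and the median log2 fold change was 0.06 at 12 h and 0.07 at 24 h. CDC25A, a phosphatase of S phase entry, rose from 8.09 ± 0.504 CPM (SD, n = 2) to 11.8 ± 1.26 and 13.6 ± 1.08 CPM (n = 3 each), a log2 fold change at 24 h of 0.75 (SE 0.096, adjusted p 6.35e-07 by edgeR). NOP56, of the box C/D ribonucleoproteins that modify ribosomal RNA, rose by 0.31 at 24 h (adjusted p 6.29e-05). The others higher at 24 h by edgeR were BOP1 (0.3, adjusted p 7.47e-05), TFAP4 (0.28, 0.00317), RRS1 (0.18, 0.02), RRP9 (0.18, 0.0322) and TERT (0.87, 0.0358). CDC25A and TERT passed the 1.5-fold rule at 24 h. TERT, counted at most 138 times in a library, also passed it at 12 h (0.9, adjusted p 0.0388 by edgeR). GNL3, the nucleolar protein nucleostemin, was lower at 24 h (-0.26, adjusted p 5.72e-05), as were NPM1 (-0.14, adjusted p 0.00962), HSPD1 (-0.16, adjusted p 0.00711) and DDX18 (-0.15, adjusted p 0.0488). ODC1, a classic MYC target of polyamine synthesis, had log2 fold changes of 0.06 at 12 h and -0.01 at 24 h, neither past the test. Between 24 h and 12 h, 0 of the list passed in either direction, also by DESeq2, and 6 had an unadjusted p under 0.05.

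Of 20 listed AP-1 targets, 11 were tested. CCND1, the G1 cyclin, rose from 286 ± 0.917 CPM (SD, n = 2) to 319 ± 8.32 and 351 ± 2.17 CPM (n = 3 each), with a log2 fold change at 24 h of 0.29 (adjusted p 4.41e-06 by edgeR). It was the only target higher at 12 h or 24 h at an adjusted p of 0.05. By the same threshold MMP10 was lower at 12 h, and HMOX1, VEGFA and LIF were lower at 24 h. At an unadjusted p under 0.05 in edgeR, 2 were higher and 4 lower at 12 h, and 3 were higher and 4 lower at 24 h. SPHK1, counted at most 178 times in a library, had log2 fold changes of 0.54 at 12 h (adjusted p 0.104 by edgeR) and 0.57 at 24 h (0.0712). LIF, a cytokine of the IL6 family, had -0.42 at 24 h (adjusted p 0.00216 by edgeR), and HMOX1, the heme oxygenase, fell from 12 h to 24 h (-0.35, adjusted p 0.0163), a call lost in 3 of 15 alternatives. The median of the list was -0.13 at 12 h and -0.31 at 24 h. It weighs all tested genes alike, also those with few counts. CD44 and AREG, counted at most 9 and 13 times in a library, had log2 fold changes at 24 h of -1.99 (SE 1.1) and -0.96 (SE 0.94). FOSL1, counted at most 33 times, had 0.11 (SE 0.57). None of these passed the test, so the 24 h median rests in part on poorly measured genes.

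**Figure D5:**
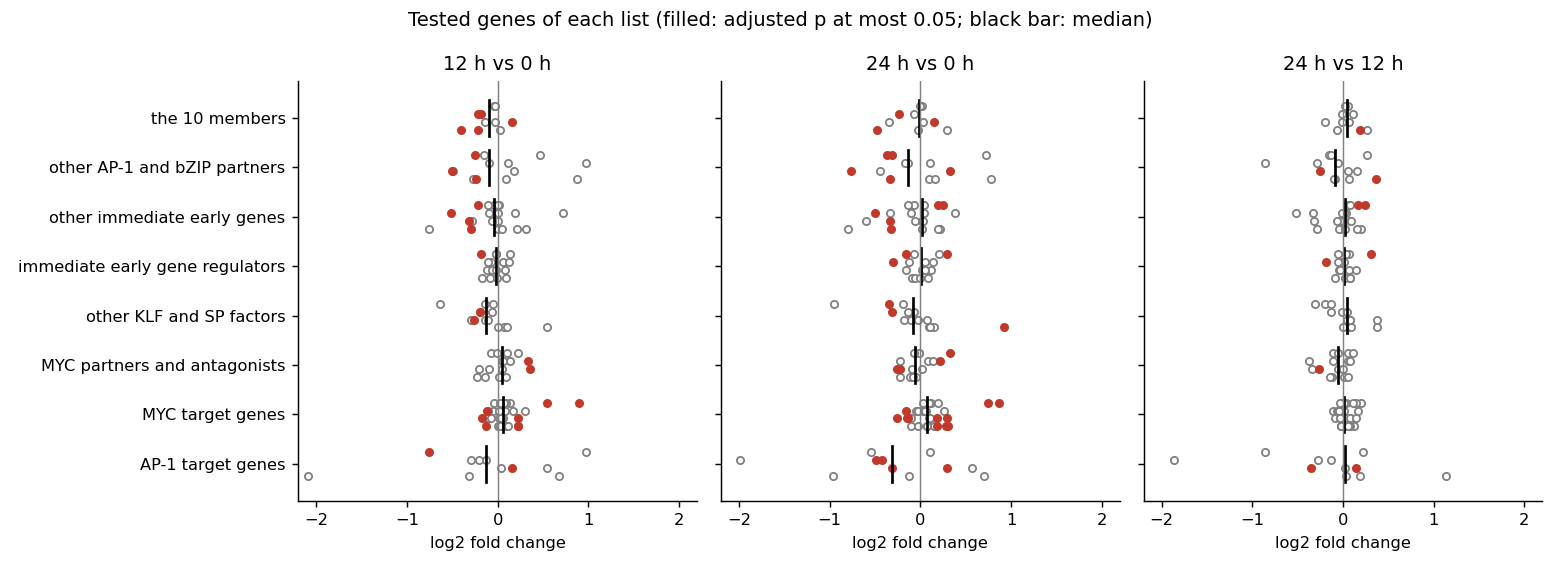
Log2 fold changes (x axes) of the tested genes in the 10 members and the 7 lists (rows) in the 3 comparisons; filled points passed an adjusted p of 0.05, open points did not, and black bars are medians. Within each list most points are open, and filled points stand on both sides of 0 in the comparison of 24 h with 0 h.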

How the data were processed

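RNA was sequenced as paired-end poly(A) libraries from 8 LNCaP samples. The authors trimmed adapters with Cutadapt, aligned reads to GRCh38.p13 with STAR and the GENCODE annotation, and counted reads per gene with featureCounts; the deposited values are these raw counts, with no normalization. Strand, pair and multi-mapping options were not given in the sources used here, so overlapping genes may share reads. Groups came from the time in the labels. The second time-0 column carries a number that no time-0 label has and was used as a 0 h library without a replicate number.

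Counts were tested in R 4.3.3 with the edgeR 4.0.16 quasi-likelihood F test (robust, TMM scaling, filterByExpr), with 1 coefficient per time point over all 8 libraries and Benjamini-Hochberg adjustment over 21071 genes. SE and 95% intervals were derived from the F statistic. Log2 CPM used a prior count of 2. The chi-square statistic per degree of freedom was 5.32 to 15.2 for the 7 pairs of libraries within groups, so no library was a repeat of another of the same time point. Pairs from different time points were not compared in this way. Exon lengths and overlaps came from GENCODE release 44, whose coordinates equalled those of the table for 30996 of 30996 shared identifiers. Apart from genes that overlap JUNB, IER2 and MYC at the same place, no stretch of at least 100 bases at 95% identity or more was found in another gene. The procedure was tested on simulated data. Differences in the JUND share and in the ratio of the JUN to the FOS family were tested by exact permutation over libraries.

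The 10 genes, the 7 lists of related genes and the 4 marker lists were chosen with earlier results of these data known. All 10 genes were described, and for each list the counts past the test and the 3 genes with the smallest p over the comparisons. Some genes of these lists are counted but not reported by name. The 3 nearest profiles were sought for FOS, EGR1 and MYC. Alternatives were RLE and upper-quartile scaling, no low-count filter, DESeq2 1.42.0, protein-coding genes alone, the compared time points alone, the replicate number as a block, adjusted p alone, and leaving out each library.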

Additional observations from a re-analysis of the deposited data

Results flagged for a closer look

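The change of JUN differed between the 2 later time points by the test of the difference itself, the 24 h against 12 h contrast of the edgeR fit. Its log2 fold change from 0 h was -0.22 at 12 h and -0.03 at 24 h, and the difference was 0.19 (SE 0.048, adjusted p 0.0198), with all 3 libraries at 24 h above all 3 at 12 h. The adjusted p ran from 0.00493 to 0.239 over 15 alternatives and stayed under the threshold in 12 of them. Groups of 3 libraries are too small for a check of single outlying samples.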

How the results depend on the processing

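At 12 h, 222 genes were called with all libraries, 2443 by adjusted p alone, and 78 to 300 when each library was left out, the lowest without 0 h replicate 1. The members past adjusted p were 3 in the compared time points alone and 0 to 5 when leaving out libraries. At 24 h, 516 genes were called, 3437 by adjusted p alone and 265 to 567 when leaving out libraries. Between 24 h and 12 h, 38 were called, 574 by adjusted p alone, 25 among protein-coding genes alone and 16 to 46 when leaving out libraries, with 0 to 1 members past adjusted p. The cause was not tested. DESeq2 gave no adjusted p for EGR1 at 12 h against 0 h or at 24 h against 12 h.

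Directions turned for some member values that did not pass the test in that comparison, mostly when a library was left out. At 12 h these ran over -0.31 to 0.08 for FOS, -0.13 to 0.08 for JUNB, -0.53 to 0.90 for EGR1, -0.08 to 0.02 for IER2 and -0.07 to 0.03 for KLF10. At 24 h they ran over -0.07 to 0.14 for JUNB, -0.26 to 1.16 for EGR1, -0.02 to 0.05 for IER2 and -0.06 to 0.05 for KLF10, which was 0.00 under upper-quartile scaling and without the filter. Between 24 h and 12 h they ran over -0.06 to 0.02 for JUND and 0.00 to 0.10 for IER2. Of the member values under alternatives, 390 kept direction and side of the threshold, 18 lost the call and 20 turned, and of those for named list genes, 280 kept both and 18 lost the call.

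Same-numbered 12 h and 24 h libraries had correlations of their deviations of 0.102, 0.0273 and 0.0301, so the numbers were not taken as pairs. With the replicate block, 42 genes were called between 24 h and 12 h and 1 member passed. With the second 0 h library used without a number, the comparisons with 0 h share only 1 number and were not blocked. FOS and EGR1 had 30 to 126 counts a library and a pooled SD of log2 CPM of 0.315 and 0.458, and changes inside their intervals could not be told from none.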
